A study of Bos taurus with 12 samples.

Results

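The miR-17-92 cluster and its paralogs, the miR-106b-25 cluster, the miR-106a-363 cluster and miR-92b, were followed in bovine intramuscular preadipocytes before and during adipogenic differentiation. Members were taken from the miRNA expression matrix by the number in their name (miR-17, miR-18a, miR-18b, miR-19a, miR-19b, miR-20a, miR-20b, miR-25, miR-92a, miR-92b, miR-93, miR-106a, miR-106b or miR-363), with every arm and every species prefix and 1 row for each name. This gave 23 of 1330 miRNA names, in 25 of 1458 rows. Of the 23, 20 had at least 10 raw counts over the 12 libraries and were tested, and 0 rows carried the name miR-18b. The cells came from longissimus dorsi of Qinchuan cattle sampled as newborns. They were harvested without induction (0 d) or 3, 6 or 9 d into differentiation, and each time point has 3 libraries. Induction took 48 h in 0.5 mM IBMX, dexamethasone (given as 1 g/mL in the sample labels) and 5 µg/mL insulin, followed by insulin without the other agents. The published methods state other concentrations for dexamethasone and insulin. The published methods call the libraries of a day biological replicates and the published text speaks of cells of 1 batch, without saying whether they came from separate animals or cultures, so the p-values below measure only the spread between these samples, which may be technical.

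miRNAs guide Argonaute proteins to messenger RNAs that pair with the seed, bases 2 to 8 of the miRNA, and the bound messages are repressed. The miR-17-92 cluster is a polycistron, in which several hairpins are cut from a single primary transcript, and it is known for driving proliferation and survival under the control of MYC and E2F factors. In preadipocytes of other species it has been linked to clonal expansion and fat cell formation through repression of retinoblastoma family proteins.

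The deposited reads of the major members, and of the scarce miR-363, are shown first because the seeds define which members can share targets, and because single bases decide which locus a read can come from. Capitals mark the seed, bases 2 to 8. The first set has the seed of miR-17, the second differs from it in the seed of miR-18a, the third is miR-19, and the last is the miR-92 and miR-25 set.

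miR-17-5p: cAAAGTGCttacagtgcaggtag
miR-106a: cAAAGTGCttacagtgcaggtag
miR-20a: tAAAGTGCttatagtgcaggtag
miR-93: cAAAGTGCtgttcgtgcaggtag
miR-106b: tAAAGTGCtgacagtgcagat

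miR-18a: tAAGGTGCatctagtgcagatag

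miR-19a: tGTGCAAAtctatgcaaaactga
miR-19b: tGTGCAAAtccatgcaaaactga

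miR-92a: tATTGCACttgtcccggcctgt
miR-92b: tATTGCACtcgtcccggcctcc
miR-25: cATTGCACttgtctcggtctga
miR-363: aATTGCACggtatccatctgcg

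The other arms of these hairpins carry seeds of their own. Those of the star strands that the comparisons below turn on, including the abundant opposite arms of miR-106b and miR-18a, are shown in the same way.

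miR-17-3p: cTGCAGTGaaggcacttgtagc
miR-18a-3p: aCTGCCCTaagtgctccttctgg
miR-92a-5p: aGGTTGGGatcggttgcaatgct
miR-25-5p: aGGCGGAGacttgggcaattgct
miR-106b-3p: cCGCACTGtgggtacttgctgc
miR-92b-5p: aGGGACGGgacgcggtgcagtgtt

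Positions in the following differences are counted from 1 at the 5′ end. The read in the row of miR-106a differs from the annotated miR-106a by A1C and is base for base the read of miR-17-5p. Both names hold the same values in each library, because the authors divided the reads of this sequence equally between them, and together they had 25775 raw counts. The sequence was found in the miR-17 hairpin and not in the miR-106a hairpin. miR-19a and miR-19b differ by T11C outside their shared seed, and miR-92b differs from miR-92a by T10C, G21C and T22C. The row of miR-92a-5p, a goat entry, differs from its annotated sequence by A12G. Outside the family, 1 other name had one of the seeds of the guide strands shown, miR-32, with 180 raw counts over the 12 libraries.

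On build ARS-UCD1.2 of the deposited table, the miR-17-92 hairpins lay at chr12:65689417-65690209 (plus strand, 6 hairpins in 793 bp). The miR-106b-25 hairpins lay at chr25:36355563-36356057 (plus strand, 3 hairpins in 495 bp). The miR-106a-363 hairpins lay at chrX:17975488-17976409 (minus strand, 5 hairpins in 922 bp), and miR-92b at chr3:15425788-15425904 (minus strand). In the RefSeq annotation of a later assembly, ARS-UCD2.0, which was used only for names and neighbours, miR-106b, miR-93 and miR-25 lie inside the gene MCM7. The miR-17-92 hairpins lie between LOC101907906 and GPC5, the X-linked hairpins between GPC3 and CCDC160, and miR-92b between THBS3 and MUC1.

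miR-92a and miR-19b are encoded in both the chromosome 12 and the X-linked cluster, and their reads cannot be assigned to either. Each has 2 rows between which the authors divided the reads, so the normalized values below are those of 1 row, and shares of the library add both rows. Only miR-363 had a read that fits an X-linked hairpin and no other, with 5 raw counts, all in 0 d replicate 3. The read of miR-20b (2 raw counts in 6 d replicate 2, C10T from its annotated sequence) and the opossum-named miR-92a-3p were in none of the 15 hairpins. miR-20a-3p had 5 raw counts, all in 3 d replicate 2. The reads of miR-17-3p, miR-363 and the opossum-named miR-92a-3p start at another base than the annotated miRNA, which shifts their seed, and 11 of the 23 reads equal the annotated sequence.

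Raw counts of all miRNA rows ran from 1851720 (0 d replicate 3) to 5636256 (6 d replicate 2) per library. The deposited normalized value, used for levels below, is the raw value times 1 factor per library (0.545 to 2.19). miRNAs are read whole, so levels were compared between miRNAs without dividing by length. The levels, ranks and shares below are those of reads, and whether different sequences were captured equally was not tested. The library of 0 d replicate 3 stood apart. Its mean Pearson r with the other 0 d libraries over 1079 miRNAs was 0.932 and with the other days 0.910, the lowest of the 12 libraries in both. It alone held the liver miRNA miR-122 (normalized value 648). The endothelial miR-126 was found in 0 d replicate 3 (129.5) and in 6 d replicate 3 (261) and was 0 in the other 10 libraries. Leukocyte miR-150 had 26.3 in 0 d replicate 3, 212 in 6 d replicate 3 and 6.62 in 9 d replicate 2, leukocyte miR-223 had 15.4 in 0 d replicate 3 and 8.05 in 6 d replicate 3, and in the same pair of libraries erythroid miR-451 had 28.5 and 26.02. All 3 were 0 elsewhere, and leukocyte miR-142 had 0 names in the table. The part of these cells or RNAs in the results was not tested, and calls of members that change without 0 d replicate 3 or 6 d replicate 3 are given both ways.

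In the mRNA libraries of the same samples the 6 blood and immune markers stayed under 1 FPKM each, with PTPRC and HBB at 0, and their summed level was 0.14 to 0.54 FPKM. CD68 was the most abundant of them (0.13 to 0.50 FPKM). Of 4 endothelial markers, VWF alone reached 1 FPKM (1.56 to 2.58), PECAM1, CDH5 and KDR did not, and the sums were 1.58 to 2.64 FPKM. All 4 preadipocyte and mesenchymal markers were present, COL1A1 most abundantly (877 to 3615 FPKM), with sums of 2127 to 4502 FPKM. They moved in opposite ways from 0 d to 3 d. The means of PDGFRA went from 159.6 to 929.5 FPKM and of THY1 from 33.5 to 121, while those of COL1A1 went from 3018 to 941 and of PDGFRB from 586 to 226. Of 8 adipocyte markers, all found, FABP4 was 3.02 to 3.52 FPKM at 0 d and 86.2 to 94.7 at 3 d, with means of 26.4 at 6 d and 9.07 at 9 d. LEP ran the other way, with means of 2.34, 0.07, 8.02 and 20.5 FPKM over the 4 days, while ADIPOQ reached at most 1.64, CIDEC 0.57 and CEBPA 0.26 FPKM. PLIN1, whose row is joined with PEX11A, had the highest mean over the 12 libraries (20.4 to 50.0 FPKM), and the adipocyte sums were 53.9, 61.6 and 62.0 FPKM (0 d), 177, 177 and 183 (3 d), 90.8, 97.6 and 103 (6 d), and 92.5, 76.4 and 90.4 (9 d). Muscle markers were clearly present. Of 7 listed, 6 were found (PAX7 was not), DES was the most abundant (125 to 420 FPKM), and the sums were 786, 826 and 899 FPKM (0 d), 255, 282 and 278 (3 d), 388, 369.9 and 412 (6 d), and 314, 282 and 306 (9 d). MYOD1 had means of 267.8, 109.2, 47.7 and 54.55 FPKM over the 4 days. The means of MYF5, MYOG, MYH3 and CKM were highest at 0 d too. Among the miRNAs, muscle miR-206 had normalized values of 20726 to 119332, miR-133a of 8910 to 15070 and miR-1 of 346 to 1592. The highest miR-206 and miR-1 values were those of 0 d replicate 3, where 0 d replicates 1 and 2 had 58245 and 40098 for miR-206. In these bulk libraries, fewer cells of a type and less RNA per cell cannot be told apart.

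miR-92a was the most abundant member. By mean normalized value it ranked 8 of 1330 miRNAs on 1 row of each name, which holds for the ranks below too, and 3 with all rows of each name added. Its normalized values were 69106, 68316 and 52893 (0 d), 95766, 97552 and 94951 (3 d), 85308, 83214 and 92592 (6 d), and 75893, 77512 and 63330.4 (9 d). The 3 d libraries were the highest of all, each above every 0 d library, and 0 d replicate 3 was the lowest. miR-25, of the same seed, followed at rank 58 with 5857, 5099 and 3925 (0 d), 8777, 8309.9 and 8834 (3 d), 7616, 7232 and 7499.5 (6 d), and 7713, 8010.0 and 9049 (9 d). Every library of 3, 6 and 9 d lay above every 0 d library, without any overlap. miR-92b, the product of its own locus, ranked 74 with 5695, 6051 and 6256 (0 d), 9108, 9319 and 9055 (3 d), 4657, 4649 and 4650.5 (6 d), and 3665, 3430.3 and 2458 (9 d). Its days separated completely, from 3 d through 0 d and 6 d down to 9 d, and the 6 d libraries were almost equal. The opossum-named miR-92a-3p, a longer and shifted read, had 19.4, 6.23 and 15.4 (0 d), 14.7, 17.2 and 15.7 (3 d), 15.7, 22.3 and 7.43 (6 d), and 17.2, 13.2 and 11.5 (9 d), and its days overlapped.

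Among the members with the miR-17 seed, miR-93 was the highest (rank 77), with 4925, 4868 and 2557 (0 d), 6115, 6147 and 6073 (3 d), 5613, 4885 and 4938 (6 d), and 4362, 5043 and 4821 (9 d). The 3 d libraries lay above all the others, and 0 d replicate 3 lay far below. miR-17-5p and miR-106a, the shared sequence, each had 916, 1000.4 and 505 (0 d), 1003, 1042 and 794 (3 d), 1353, 1100.0 and 1034 (6 d), and 827, 969.9 and 979 (9 d). Here 6 d was highest, each of its libraries above each 0 d library. For miR-20a the values were 625, 845 and 386 (0 d), 836, 908 and 619 (3 d), 1019, 658 and 671 (6 d), and 584, 618 and 593 (9 d), and each day overlapped 0 d. miR-106b had 204, 284 and 318 (0 d), 299, 293 and 351 (3 d), 253, 237 and 160.4 (6 d), and 137, 146 and 172 (9 d). All 9 d libraries lay under all 0 d and 3 d libraries for this member.

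miR-18a and miR-19 were scarce. miR-18a had 34.3, 54.9 and 13.2 (0 d), 21.5, 32 and 29.6 (3 d), 28.9, 37.1 and 12.4 (6 d), and 17.2, 21 and 19.5 (9 d), with 6 to 68 raw counts per library, and its 0 d libraries spanned the range of nearly all the others. miR-19a had 41.8, 49.9 and 24.1 (0 d), 26, 51.6 and 22.2 (3 d), 40.5, 17.4 and 17.4 (6 d), and 5.43, 11 and 15 (9 d), on 6 to 63 raw counts. Its 9 d libraries were the lowest of the 12, beneath those of every other day. miR-19b had 94.7, 141 and 46.1 (0 d), 136, 129 and 80.9 (3 d), 119, 71.7 and 37.5 (6 d), and 34.8, 55.2 and 37.6 (9 d), and its 9 d libraries lay below all 3 d libraries but overlapped those of 0 d.

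The opposite arms, often discarded as passenger strands, were in part more abundant. miR-106b-3p ranked 83 with 4006, 3697 and 7893 (0 d), 4422, 4035 and 5863 (3 d), 3391, 3194 and 3611 (6 d), and 3946, 3853 and 3546 (9 d). Replicate 3 of 0 d stood alone at the top, and without it the 0 d values lay within the range of the other days. miR-18a-3p had 485, 461 and 244 (0 d), 356, 381 and 436 (3 d), 354, 429 and 274 (6 d), and 222, 276 and 142 (9 d), highest in 0 d replicates 1 and 2 and lowest in 9 d replicate 3. For miR-25-5p the values were 181, 209 and 288 (0 d), 337, 290.1 and 350.4 (3 d), 160.3, 177 and 247 (6 d), and 173, 166 and 172 (9 d), with each 3 d library above all others. miR-92a-5p had 191, 226 and 191 (0 d), 239, 208 and 225 (3 d), 180.2, 207 and 224 (6 d), and 114, 116 and 72.5 (9 d). Its 9 d libraries lay apart below the other 9. miR-92b-5p had 65.6, 86 and 114 (0 d), 81.4, 82.8 and 134 (3 d), 33.9, 39.2 and 70 (6 d), and 28, 23.2 and 15.9 (9 d), and here too each 9 d library lay beneath the others. miR-93-3p had 55.2, 62.3 and 187 (0 d), 86, 77 and 94.3 (3 d), 79.3, 83.9 and 82.4 (6 d), and 85, 75.1 and 65.4 (9 d), where 0 d replicate 3 was high and the other libraries lay from 55.2 to 94.3. For miR-17-3p they were 65.6, 53.6 and 68 (0 d), 83.7, 82.8 and 60.1 (3 d), 105, 121 and 99.7 (6 d), and 72.4, 76.2 and 99 (9 d), and the 6 d libraries were above all those of 0 d and 3 d. miR-19b-1-5p, named for mouse, had 17.9, 6.23 and 11 (0 d), 13.6, 16.4 and 14.8 (3 d), 12.4, 16.9 and 10.5 (6 d), and 7.24, 5.52 and 11.5 (9 d), with overlapping days.

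**Figure D1:**
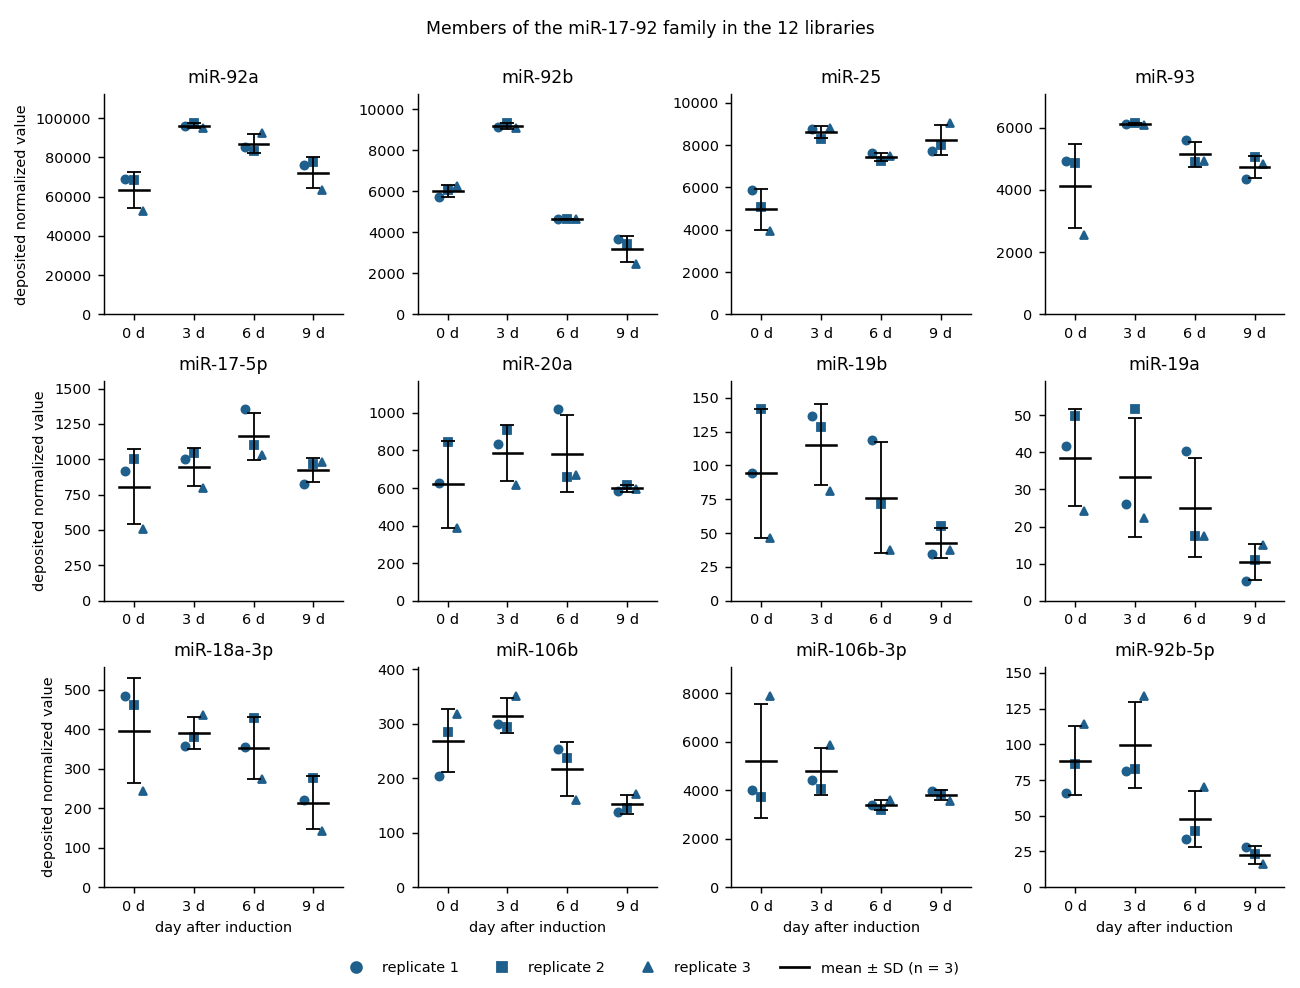
Deposited normalized value (vertical axis) of 12 members by day after induction (horizontal axis), with a point for each library, bars for the mean ± SD (n = 3) and a symbol for each replicate number. miR-92b fell from 9161 at 3 d to 3184 at 9 d in the mean, while miR-25 remained at 8257 at 9 d, and 0 d replicate 3 is the lowest 0 d library for miR-92a, miR-25, miR-93, miR-17-5p and miR-20a.

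The mean at 3 d was the highest of the 4 days for 12 of the 20 members, or for 13 on TMM-scaled counts, and for 10 to 14 with 1 library left out. No such count over all miRNAs is given here, so these numbers do not set the members apart. Among the 20, miR-17-5p and miR-106a are 1 sequence. All members together, with both rows of miR-92a and miR-19b, held 5.19, 5.36 and 3.18 (0 d), 7.18, 7.43 and 6.89 (3 d), 6.27, 6.21 and 6.75 (6 d), and 4.88, 4.48 and 4.1 (9 d) percent of the raw miRNA counts. The 3 d shares were the highest, with 6 d replicate 3 close beneath them, and 0 d replicate 3 was the lowest, so that the 0 d mean was 4.58 ± 1.21 percent (SD, n = 3) beside 7.16 ± 0.272 at 3 d, 6.41 ± 0.294 at 6 d and 4.49 ± 0.388 at 9 d. The 0 d mean was 5.27 percent without 0 d replicate 3. miR-92a alone made up 3.85 ± 1.09, 6.11 ± 0.262, 5.60 ± 0.306 and 3.86 ± 0.387 percent at 0, 3, 6 and 9 d. The other 22 names together held 0.724 ± 0.125, 1.05 ± 0.0101, 0.810 ± 0.0288 and 0.625 ± 0.0230 percent. The seed of miR-17 held 0.105 to 0.308 percent of a library, that of miR-19 0.00210 to 0.0111 percent and that of miR-18a 0.000324 to 0.00183 percent. By position, the hairpins of miR-106b-25 held 0.444 ± 0.0617, 0.643 ± 0.0194, 0.530 ± 0.0151 and 0.460 ± 0.0277 percent at the 4 days. The miR-92b hairpin held 0.182 ± 0.0239, 0.294 ± 0.0121, 0.151 ± 0.00173 and 0.0858 ± 0.0178 percent. The ± are SD with n = 3.

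Arm use differed between neighbouring hairpins of a single transcript. Over the 12 libraries, the 5′ arm gave 95.8% of the reads of the miR-17 hairpin, 98.4% of miR-93 and 99.9% of miR-20a. The 3′ arm gave 92.7% of the miR-18a hairpin, 94.6% of miR-106b, 97.1% of miR-25, 98.9% of miR-92b and 99.9% of the miR-92a-1 hairpin, for which all miR-92a reads were counted whatever their locus. For the miR-106b hairpin the 5′ share was 5.29 ± 1.67%, 6.25 ± 0.565%, 6.03 ± 1.54% and 3.88 ± 0.655% at 0, 3, 6 and 9 d (SD, n = 3). For miR-25 it was 4.59 ± 1.997%, 3.63 ± 0.229%, 2.54 ± 0.577% and 2.03 ± 0.160%, where 0 d replicate 3 had 6.83% and the other 0 d libraries a mean of 3.47%. No arm passed from minor to major in any of the 12 libraries, and these shares were not tested.

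**Figure D2:**
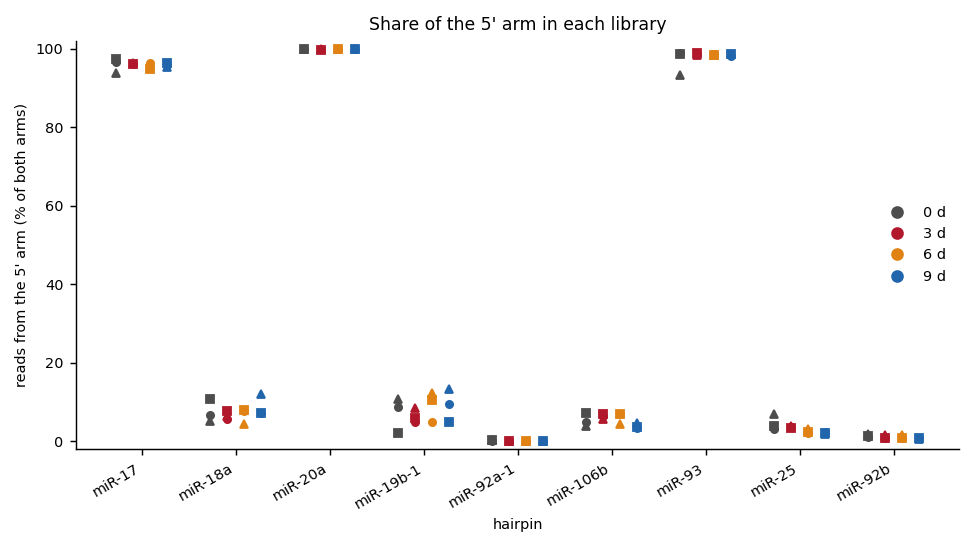
Share of the 5′ arm in the reads of both arms (vertical axis, percent) for 9 hairpins (horizontal axis), with a point for each library coloured by day. The hairpins of miR-17, miR-20a and miR-93 lie at 93.2% or more in all 12 libraries and the other 6 at 13.3% or less.

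Comparisons between days used edgeR quasi-likelihood tests on the rounded raw values of 1079 miRNAs with TMM scaling, and p-values were adjusted by Benjamini-Hochberg over all of them. A miRNA was called with an absolute log2 fold change over 1 and an adjusted p under 0.05, and a second count took the adjusted p alone. The SE given for edgeR was derived from the test, as the absolute log2 fold change divided by the square root of its F statistic. The 3 comparisons with 0 d share those libraries and are not independent. Over all miRNAs, 43 were called higher and 27 lower after 3 d, with 80 higher and 45 lower after 6 d and 110 higher and 92 lower after 9 d. The comparison of 9 d with 3 d called 32 higher and 39 lower. The share of higher ones among the called moved with the scaling and, for DESeq2, with scaling and test changed together. It was 61.4% at 3 d, against 54.3% with median-ratio factors in edgeR, 56.7% with library totals and 48.8% with DESeq2. It was 64% at 6 d, against 50% with median-ratio factors in edgeR and 48.5% with DESeq2. It was 54.5% at 9 d, against 43.5% with DESeq2 and 32.1% with library totals, and 45.1% for 9 d vs. 3 d, against 26.4% with library totals. The median log2 fold change of all miRNAs was 0.26 at 6 d, against 0.10 with median-ratio factors or DESeq2 and 0.15 with library totals. It was 0.01 with at least 120 raw counts, 0.09 with no filter on low counts, 0.12 without 6 d replicate 2, 0.14 without 6 d replicate 3 and 0.41 without 0 d replicate 2. At 9 d it was 0.00 against -0.19 with library totals, and for 9 d vs. 3 d -0.01 against -0.31.

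The first comparison was 3 d with 0 d, and no uninduced cells of the same age were sequenced. The seed family of miR-92a rose, miR-25 most (log2 0.92, SE 0.181, edgeR adjusted p = 5.0e-03), from a mean normalized value of 4960 ± 974 to 8640 ± 288 (SD, n = 3). miR-92b rose from 6000.4 ± 284 to 9161 ± 139 (log2 0.74, SE 0.163, edgeR adjusted p = 0.01). miR-92a rose from 63438 ± 9141 to 96090 ± 1330.0 (log2 0.72, SE 0.161, edgeR adjusted p = 0.011). All 3 libraries of 3 d lay above all 3 of 0 d for each of them, as they did for 5 of the 20 members and 12.5% of all miRNAs. These were the 3 members higher by adjusted p alone, where 5.84% of all miRNAs were, and 0 members were lower, where 3.52% were. No member changed over 2-fold in edgeR, where 6.49% of all miRNAs did (0 members in DESeq2 too, and 7.78% of all), and 5 members had an unadjusted p under 0.05 in both tools, beside 21.7% of all miRNAs in edgeR and 23.0% in DESeq2. Of the other guide strands, miR-93 had a log2 fold change of 0.68 (edgeR adjusted p = 0.089), miR-20a of 0.46 (0.35) and miR-17-5p of 0.34 (0.43), none of which passed. The median log2 fold change of the 20 members was 0.36, with 17 above 0, beside 0.03 for all miRNAs. The members' median was 0.23 with median-ratio factors and 0.24 with DESeq2 or at least 120 raw counts, with 15 above 0 in each, and the median of all miRNAs was 0.15 without 0 d replicate 2.

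The rise at 3 d was present without 0 d replicate 3, at log2 0.75 for miR-25 (edgeR adjusted p = 1.7e-03), 0.73 for miR-92b (6.7e-03) and 0.57 for miR-92a (4.4e-03), and miR-93 (0.41, edgeR adjusted p = 0.045) and miR-25-5p (0.83, 0.021) were then also higher, 5 members in all. Of all miRNAs, 11.2% passed by adjusted p in that fit. Without 0 d replicate 1, miR-25 passed 2-fold (log2 1.07), where 7.41% of all miRNAs did. Leaving out 3 d replicate 1 or 3 d replicate 2 left miR-25 alone, as miR-92b then had edgeR adjusted p-values of 0.0504 and 0.0528 and miR-92a of 0.0569 and 0.0567 at nearly the same fold changes (0.75, 0.74, 0.72 and 0.72). In each of these fits, 5.28% of all miRNAs passed by adjusted p. With only the 6 libraries compared in the fit, 0 members passed, at the same log2 fold changes (miR-25 0.92, miR-92b 0.74 and miR-92a 0.72, edgeR adjusted p = 0.0721, 0.0525 and 0.0993). Of all miRNAs, 3.43% passed there.

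In the comparison of 6 d with 0 d, miR-25 and miR-92a were again higher and miR-92b was not. miR-25 stood at 7449 ± 197 (log2 0.75, SE 0.18, edgeR adjusted p = 0.011) and miR-92a at 87038 ± 4923 (log2 0.63, SE 0.16, edgeR adjusted p = 0.016). miR-17-3p, the passenger arm of miR-17, went from 62.4 ± 7.74 to 109 ± 11.1 (log2 0.98, SE 0.262, edgeR adjusted p = 0.019), with every 6 d library above every 0 d library. Its partner arm miR-17-5p had a log2 fold change of 0.68 with libraries that did not overlap, and did not pass (edgeR adjusted p = 0.081). miR-92b had -0.19 (edgeR adjusted p = 0.45), although its 6 d libraries all lay below those of 0 d in the deposited values. Thus 3 members were higher by adjusted p alone (10.6% of all miRNAs) and 0 lower (5.47% of all). Over 2-fold, 0 members were called by edgeR (11.6% of all miRNAs) and 0 by DESeq2 (15.7%), with 5 and 8 members at an unadjusted p under 0.05 (28.6% and 27.0% of all miRNAs). The members' median log2 fold change was 0.08, with 10 of 20 above 0, beside 0.26 for all miRNAs, and it became -0.08 with median-ratio factors or DESeq2, -0.03 with library totals, -0.04 with limma, -0.11 with at least 120 raw counts and -0.02 without 6 d replicate 2. It rose to 0.16, 0.20 and 0.17 without 0 d replicates 1, 2 and 3, and to 0.15 without 6 d replicate 1. Without 6 d replicate 3 it was 0.14, beside 0.14 for all miRNAs, with 14 of 20 above 0.

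Scaling and single libraries decided several of the 6 d calls. Without 6 d replicate 3, miR-92a did not pass (log2 0.58, edgeR adjusted p = 0.0645), miR-25 did, and miR-17-3p rose over 2-fold (1.05). miR-92a also failed with median-ratio factors (0.46, edgeR adjusted p = 0.0585), library totals (0.50, 0.0916) and limma on the normalized values (0.47, 0.0676). miR-25 failed with library totals (0.63, 0.0546). Without 6 d replicate 1, 0 members passed, where 10.6% of all miRNAs did. miR-25 then had an edgeR adjusted p of 0.061, miR-92a of 0.0799 and miR-17-3p of 0.0654. miR-17-3p also failed without 0 d replicate 2 (log2 0.90, edgeR adjusted p = 0.0512), without 6 d replicate 2 (0.88, 0.091) and with no filter on low counts (0.97, 0.0502). It passed 2-fold without 0 d replicate 1 (1.04) and without 0 d replicate 3 (1.01). Without 0 d replicate 2, miR-17-5p and miR-106a passed (0.89, edgeR adjusted p = 0.041). Without 0 d replicate 3, miR-25 (0.58, edgeR adjusted p = 5.8e-03) and miR-92a (0.48, 7.8e-03) passed. In a fit of only the 6 libraries, 0 members did, where 6.58% of all miRNAs passed.

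At 9 d the members diverged. miR-25 was still higher than at 0 d, at 8257 ± 702 (log2 0.89, SE 0.18, edgeR adjusted p = 2.6e-03). miR-92b had fallen from 6000.4 ± 284 to 3184 ± 640.2 (log2 -0.76, SE 0.163, edgeR adjusted p = 3.6e-03), and its passenger arm miR-92b-5p from 88.6 ± 24.4 to 22.4 ± 6.10 (log2 -1.81, SE 0.382, edgeR adjusted p = 3.2e-03). miR-19a fell from 38.6 ± 13.2 to 10.5 ± 4.82 (log2 -1.74, SE 0.561, edgeR adjusted p = 0.036). miR-92a-5p fell from 203 ± 20.02 to 101 ± 24.5 (log2 -0.86, SE 0.227, edgeR adjusted p = 0.013), while miR-92a itself had 0.34 (edgeR adjusted p = 0.15). The 9 d and 0 d libraries did not overlap for the 5 that passed nor for 3 others. Of all 20 members, 2 were higher and 6 lower without overlap, beside 17.1% and 16.3% of all miRNAs. Over 2-fold, 2 members were lower (8.53% of all miRNAs were) and 0 higher (10.2% of all were). By adjusted p alone, 4 were lower and 1 higher, beside 10.6% and 13.6% of all miRNAs, and 9 members had an unadjusted p under 0.05 (34.6% of all). DESeq2 called 2 members over 2-fold (22.2% of all), 0 of them higher (9.64%), with 8 at an unadjusted p under 0.05 (35.4%). The members' median log2 fold change was -0.26, with 8 of 20 above 0, beside 0.00 for all miRNAs, and it was -0.58 with library totals, beside -0.19. It was -0.13 without 0 d replicate 3, -0.39 without 0 d replicate 1 and -0.45 with at least 120 raw counts.

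The falls of miR-92b-5p and miR-92b passed with any of the 12 libraries left out, at log2 -2.03 to -1.62 and -0.89 to -0.62. miR-92b had an edgeR adjusted p of 0.0644 when only the 6 libraries were fitted. The call of miR-19a ended without 0 d replicate 1 (log2 -1.68, edgeR adjusted p = 0.0792), 0 d replicate 2 (-1.45, 0.115), 3 d replicate 1 (-1.72, 0.0537), 9 d replicate 1 (-1.43, 0.122) or 9 d replicate 2 (-1.80, 0.0838), and in the fit of 6 libraries (-1.73, 0.0887). miR-92a-5p failed without 0 d replicate 2 (-0.70, edgeR adjusted p = 0.0594) or 9 d replicate 3 (-0.68, 0.0567) and in the fit of 6 libraries (-0.85, 0.0979). The rise of miR-25 failed with library totals (0.52, edgeR adjusted p = 0.0817) and passed 2-fold without 0 d replicate 1 (1.04). miR-106b (-0.66, edgeR adjusted p = 0.058) passed without 0 d replicate 1 (-0.81, 0.033) or 6 d replicate 3 (-0.63, 0.047) and with DESeq2 (-0.81, DESeq2 adjusted p = 5.3e-03), median-ratio factors (-0.81, edgeR adjusted p = 0.023), library totals (-0.999, 6.5e-03), limma (-0.81, 0.022) or at least 120 raw counts (-0.83, 0.015). miR-18a-3p (-0.77, edgeR adjusted p = 0.086) likewise passed with DESeq2 (-0.88, DESeq2 adjusted p = 0.021), median-ratio factors (-0.88, edgeR adjusted p = 0.046), library totals (-1.14, 0.021), limma, no filter on low counts (-0.82, 0.041) or at least 120 raw counts (-0.91, 0.025). miR-19b (-1.05, edgeR adjusted p = 0.12) passed with library totals (-1.44, 0.046). Without 0 d replicate 3, 4 members were called over 2-fold, miR-19a (-1.998, edgeR adjusted p = 0.015), miR-92b-5p (-1.64, 5.8e-03), miR-18a-3p (-1.04, 5.9e-03) and miR-19b (-1.39, 0.025). Of all 1079 miRNAs, 185 were called over 2-fold there and 265 passed by adjusted p. In that fit miR-92b (-0.77, edgeR adjusted p = 1.5e-03), miR-92a-5p (-0.94, 6.0e-03) and miR-25 (0.71, 1.0e-03) passed by adjusted p alone, 7 members in all. The 2-fold count was 1 without 0 d replicate 2, 3 d replicate 1, 9 d replicate 1 or 9 d replicate 2, and the adjusted p count was 3 without 0 d replicate 2. Of all miRNAs, 222, 196, 175 and 171 were called over 2-fold in those fits, and 272 passed by adjusted p without 0 d replicate 2.

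In the late phase, 9 d vs. 3 d, all members that passed were lower. miR-92b decreased from 9161 ± 139 to 3184 ± 640.2 (log2 -1.498, SE 0.166, edgeR adjusted p = 8.0e-05) and miR-92b-5p from 99.4 ± 30.01 to 22.4 ± 6.10 (log2 -2.12, SE 0.38, edgeR adjusted p = 2.4e-03). miR-92a-5p decreased from 224 ± 15.3 to 101 ± 24.5 (log2 -1.13, SE 0.226, edgeR adjusted p = 5.1e-03) and miR-106b from 314 ± 32.1 to 152 ± 17.8 (log2 -1.02, SE 0.236, edgeR adjusted p = 0.013). miR-25-5p decreased less, from 326 ± 31.7 to 170.3 ± 4.04 (log2 -0.91, SE 0.224, edgeR adjusted p = 0.02). The libraries did not overlap for any of the 5, and in total 14 of the 20 members lay lower at 9 d without overlap, beside 216 of 1079 miRNAs, and 0 higher, beside 180. Over 2-fold, 4 members were lower, where 3.61% of all miRNAs were, and 0 higher, where 2.97% were. By adjusted p alone 5 were lower and 0 higher, beside 4.17% and 5.38% of all, with 9 members at an unadjusted p under 0.05 in edgeR (24.0% of all miRNAs) and 9 in DESeq2 (24.5%). DESeq2 called 6 members lower over 2-fold (4.91% of all) and 0 higher (3.99%), and 9 by adjusted p (15.2%). The members' median was -0.44, beside -0.01 for all miRNAs, with 19 of 20 below 0 (miR-17-5p and miR-106a are 1 sequence) and 16 to 20 with 1 library left out, and with library totals it was -0.75 beside -0.31. miR-25 (-0.04) and miR-17-5p (0.00) had fold changes near 0 and miR-17-3p (0.16) was the member above 0. miR-19a (-1.63, edgeR adjusted p = 0.086) and miR-19b (-1.43, 0.072) did not pass. Both did with DESeq2 (DESeq2 adjusted p = 0.04 and 0.027), library totals (edgeR adjusted p = 0.042 and 0.034) and the fit of 6 libraries (0.027 and 2.6e-03), as did miR-92a (0.03, 0.03 and 0.022) and miR-18a-3p (0.04, 0.034 and 0.012). miR-93 passed in the fit of 6 libraries (edgeR adjusted p = 0.046), miR-19b with no filter on low counts (0.025), and miR-19b and miR-92a with at least 120 raw counts (0.049 and 0.037).

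miR-92b and miR-92b-5p passed 2-fold in every fit that left out 1 library, at log2 -1.63 to -1.35 and -2.34 to -1.81. miR-92a-5p was under 2-fold without 9 d replicate 3 (-0.95). miR-106b was near the limit. It failed without 3 d replicate 3 (-0.90, edgeR adjusted p = 0.0778), 9 d replicate 1 (-0.97, 0.0568) or 9 d replicate 2 (-0.99, 0.061), and stood at -0.99 with a passing p without 0 d replicate 2, 6 d replicate 1 or 6 d replicate 3. miR-25-5p failed without 3 d replicate 1 (-0.85, edgeR adjusted p = 0.0838), 3 d replicate 3 (-0.82, 0.0874), 9 d replicate 1 (-0.93, 0.0542), 9 d replicate 2 (-0.88, 0.0695) or 9 d replicate 3 (-0.93, 0.0617). Leaving out 0 d replicate 3, which enters only through the shared estimate of spread, raised the count by adjusted p from 5 to 10, with miR-18a-3p (-0.86, edgeR adjusted p = 0.014), miR-19a (-1.63, 0.036), miR-19b (-1.43, 0.015), miR-92a (-0.38, 0.012) and miR-93 (-0.34, 0.04) added. The 2-fold count was then 6. Over all 1079 miRNAs the count by adjusted p rose from 103 to 210 in the same fit, and the 2-fold count rose too. The increase was therefore not particular to the members. By adjusted p the count of members was 3 without 3 d replicate 3, 9 d replicate 1 or 9 d replicate 2. Of all miRNAs, 58, 74 and 60 passed in those fits.

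**Figure D3:**
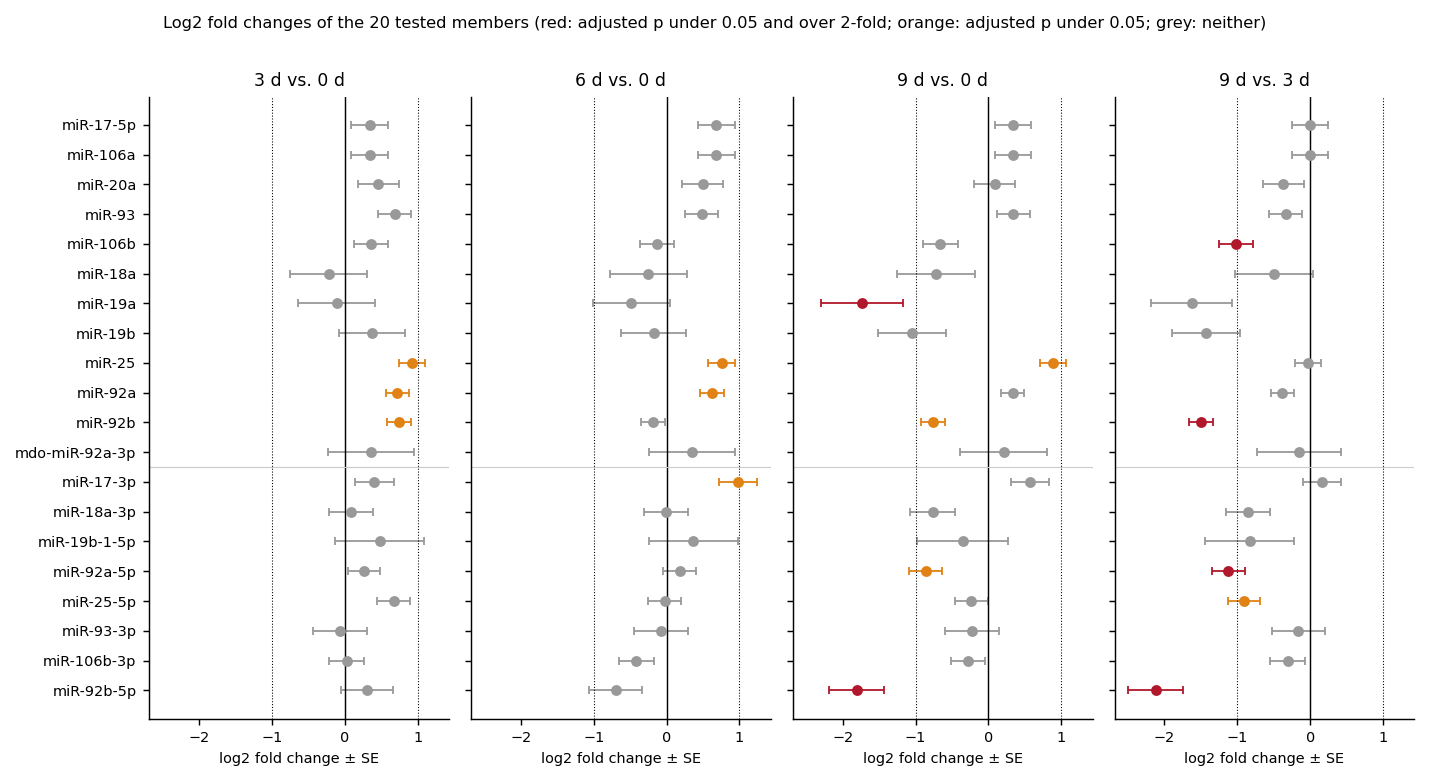
Log2 fold change (horizontal axis) with its SE for the 20 tested members (vertical axis) in the 4 comparisons, guide strands above the grey line and opposite arms below, coloured by call. miR-25, miR-92a and miR-92b lie at 0.92, 0.72 and 0.74 at 3 d vs. 0 d. From 3 d to 9 d, 19 of the 20 members are below 0, although miR-17-5p and miR-25 are close to it.

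Ratios of members within a library do not depend on how libraries are scaled. They were taken on raw counts for 9 pairs, 8 of them with both members encoded in 1 cluster, although miR-92a and miR-19b reads may also come from the X-linked cluster. The raw counts were those of 1 row, so all reads of miR-92a, miR-19b or the shared miR-17-5p sequence would move the log2 ratios with them by about 1 in every library and the differences between days hardly at all. The ratios were tested over the 4 days by an exact permutation test of the F statistic (all 15400 partitions of the 12 libraries, smallest possible p of 6.5e-05), with Benjamini-Hochberg adjustment over the 9. Log2 miR-25 over miR-106b, both cut from the MCM7 transcript, was 4.84, 4.16 and 3.62 (0 d), 4.87, 4.82 and 4.65 (3 d), 4.91, 4.93 and 5.54 (6 d), and 5.81, 5.78 and 5.72 (9 d). It was higher at 9 d than in any other library and differed by 1.56 between the means of 9 d and 0 d (permutation adjusted p = 3.5e-03). Log2 miR-93 over miR-106b, another pair of that transcript, was 4.59, 4.10 and 3.00 (0 d), 4.35, 4.39 and 4.11 (3 d), 4.47, 4.37 and 4.94 (6 d), and 4.98, 5.11 and 4.81 (9 d). The means of 9 d and 0 d differed by 1.07, and the test was not passed (permutation adjusted p = 0.076). 0 d replicate 3 was by far the lowest, and the test was passed without 0 d replicate 1 (difference 1.42, permutation adjusted p = 3.5e-03), while the difference was 0.63 without 0 d replicate 3 (0.092).

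In the miR-17-92 transcript, log2 miR-19a over miR-20a was -3.88, -4.07 and -3.94 (0 d), -4.98, -4.13 and -4.77 (3 d), -4.64, -5.22 and -5.25 (6 d), and -6.64, -5.74 and -5.26 (9 d). Every 9 d library lay below every 0 d and 3 d library, and the means of 0 d and 9 d differed by 1.92 (permutation adjusted p = 3.5e-03), on low counts of miR-19a. miR-19b over miR-20a had day means of -2.77, -2.78, -3.48 and -3.83, a difference of 1.06 (permutation adjusted p = 0.051), which passed without 6 d replicate 1 (0.045) or 6 d replicate 3 (0.014). miR-17-5p over miR-20a had 0.39, 0.27, 0.59 and 0.62 (permutation adjusted p = 0.076), which passed without 6 d replicate 1 (difference 0.35, 0.045). For miR-17-3p, miR-18a and miR-92a over miR-20a, the highest and lowest days differed by 0.55, 0.71 and 0.21, with permutation adjusted p-values of 0.45, 0.45 and 0.86. With 1 library left out the 3 changes were 0.36 to 0.78, 0.35 to 1.14 and 0.01 to 0.39. Log2 miR-92b over miR-92a, from different loci but with the same seed, was -3.60, -3.50 and -3.08 (0 d), -3.39, -3.39 and -3.39 (3 d), -4.20, -4.16 and -4.32 (6 d), and -4.37, -4.50 and -4.69 (9 d). All 0 d and 3 d libraries were above all 6 d and 9 d libraries, and the means of 3 d and 9 d differed by 1.13 (permutation adjusted p = 3.5e-03). The 3 ratios that passed did so with each of the 12 libraries left out, at differences of 1.27 to 1.88 for miR-25 over miR-106b, 1.54 to 2.23 for miR-19a over miR-20a and 1.04 to 1.202 for miR-92b over miR-92a.

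**Figure D4:**
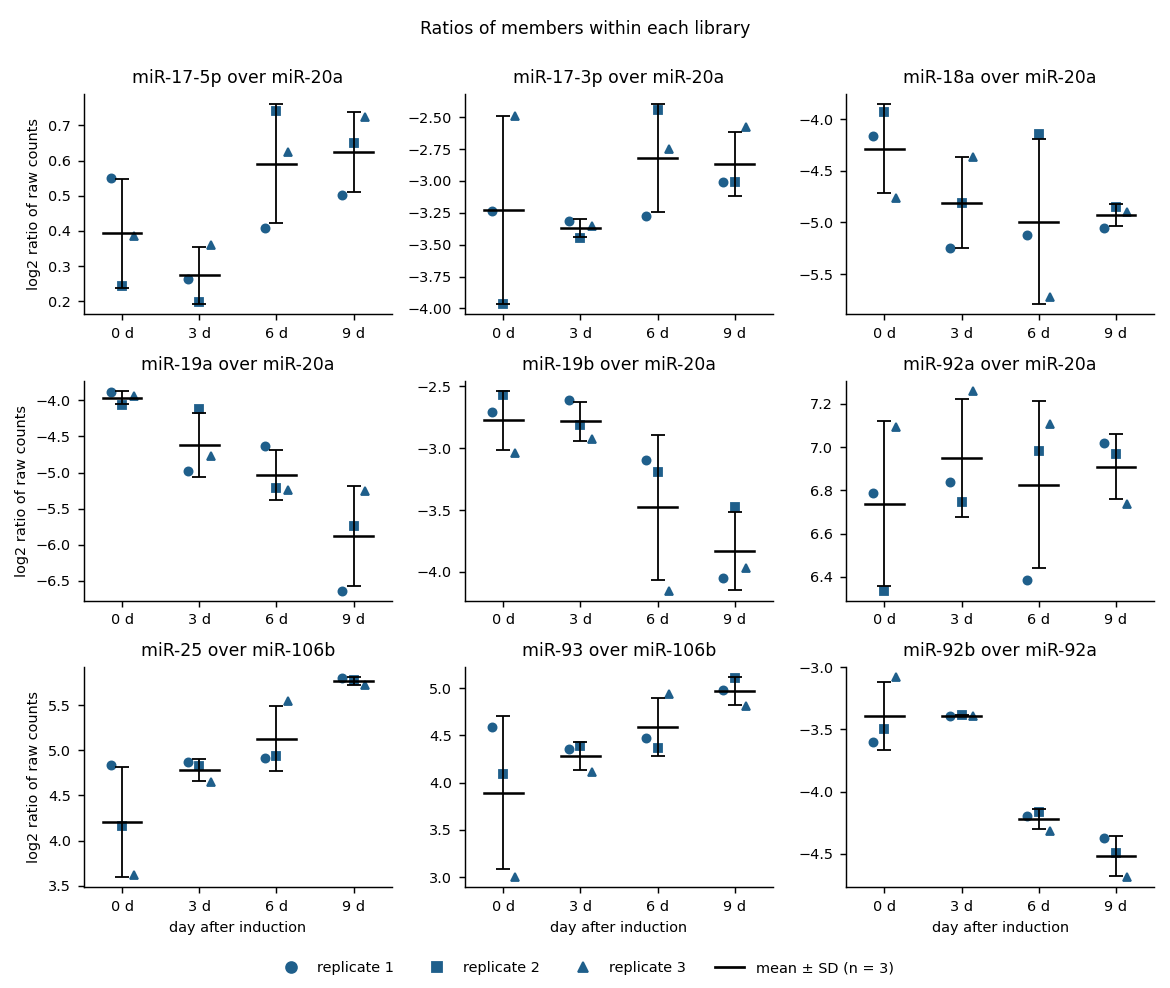
Log2 ratio of raw counts (vertical axis) for 9 pairs of members by day after induction (horizontal axis), with a point for each library and bars for the mean ± SD (n = 3). miR-92b over miR-92a goes from -3.39 at both 0 d and 3 d to -4.22 at 6 d and -4.52 at 9 d, and miR-25 over miR-106b from 4.21 at 0 d to 5.77 at 9 d.

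Levels of members were also compared over the 12 libraries. On log2(normalized + 1), with miR-106a left out because its values are those of miR-17-5p, the highest Pearson r among pairs of members were 0.892 for miR-92b with miR-92b-5p and 0.862 for miR-17-5p with miR-20a. The lowest was -0.892 for miR-17-5p with miR-106b-3p. These were 0.915, 0.718 and -0.690 without 0 d replicate 3, and pairs within the MCM7 transcript changed sign there, such as miR-93 with miR-93-3p (-0.668 to 0.381) and with miR-106b-3p (-0.544 to 0.545). The miRNAs outside the family most like 4 of its members were taken from 629 with a mean normalized value of at least 10, by r over the same 12 libraries. For miR-25 they were miR-655 (r 0.959), PC-5p-23398_115 (0.945) and miR-191 (0.929). For miR-92a they were miR-191 (0.840), miR-6517 (0.832) and miR-425-5p (0.821). For miR-92b they were miR-483 (0.924), an arm of its hairpin listed as mir-483-p5 (0.867) and PC-3p-3741_1399 (0.860). For miR-17-5p they were the opossum-named miR-21-5p (0.923), PC-3p-15227_209 (0.919) and miR-541 (0.890). The libraries share days and depth, 0 d replicate 3 among them, and without the 2 libraries farthest from the member's median the first of these lists' r were 0.810, 0.854, 0.928 and 0.574 for miR-25, miR-92a, miR-92b and miR-17-5p.

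The mRNA table of the same samples holds the hosts of the clusters, the factors that act on them and published targets. From a list of 56 genes, 55 had a mean of at least 0.1 FPKM and were tested by limma on log2(FPKM + 0.1) with all 15402 mRNAs that passed this filter (MYCN did not). In the first comparison, 3 d with 0 d, 5 listed genes were higher and 8 lower over 2-fold, where 8.06% and 15.2% of all mRNAs were. At 6 d 3 were higher and 3 lower (3.39% and 7.97% of all), and at 9 d 5 higher and 3 lower (3.41% and 7.47%). The list's median log2 fold changes were 0.00, -0.22 and -0.04, beside -0.06, -0.15 and -0.19 for all mRNAs. Rescaling the libraries by their median ratio brought the medians of all mRNAs to 0.01, 0.01 and 0.00 and those of the list to 0.08, -0.05 and 0.16, with 5 and 8, 4 and 3, and 6 and 2 listed genes called. After this rescaling the share of higher ones among all mRNAs called over 2-fold was 40.6% in place of 29.8% at 6 d and 46.6% in place of 31.3% at 9 d. By adjusted p alone, 15 listed genes were higher and 16 lower at 3 d, where 21.7% and 30.5% of all mRNAs were. At 6 d 7 were higher and 19 lower (10.0% and 24.8% of all), and 9 d had 13 higher and 17 lower (9.69% and 27.2%).

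MCM7, a subunit of the replicative helicase and host of miR-106b-25, had 6.23, 6.26 and 6.99 (0 d), 11.2, 13.2 and 11.8 (3 d), 6.83, 7.43 and 5.01 (6 d), and 9.81, 8.71 and 8.74 (9 d) FPKM. It was highest at 3 d, without overlap with any other day, and rose there by less than 2-fold (log2 0.89, SE 0.137, limma adjusted p = 3.4e-04), with 0.48 at 9 d (limma adjusted p = 0.021). The 9 d value did not pass without 0 d replicate 1 (limma adjusted p = 0.0631), 0 d replicate 2 (0.0599) or 9 d replicate 1 (0.0709). The row that names MIR17, MIR18A and MIR19A together with LOC112449108 stood for the host transcript of miR-17-92. It had 3.36, 4.47 and 5.09 (0 d), 5.97, 7.8 and 8.63 (3 d), 6.51, 5.71 and 6.2 (6 d), and 5.86, 5.65 and 7.17 (9 d) FPKM, each 3, 6 and 9 d library above each 0 d library, and rose by less than 2-fold at 3 d (log2 0.78, SE 0.176, limma adjusted p = 3.7e-03), 6 d (0.52, limma adjusted p = 0.044) and 9 d (0.53, 0.038). The 6 d value of this row did not pass without 0 d replicates 1 or 2, 3 d replicate 2, any 6 d replicate, or 9 d replicates 1 or 2 (limma adjusted p up to 0.15). The 9 d value did not without 0 d replicates 1 or 2, 6 d replicate 3 or any 9 d replicate (up to 0.129). Neither passed with no filter on low values (0.06 and 0.0518) or in the fit of 6 libraries (0.0634 and 0.073). Thus 0 of 2 hosts were called over 2-fold, and both passed at 3 d as higher by adjusted p alone, where 21.7% of all mRNAs did. Among the other 5 MCM subunits, MCM3 alone was called, at 9 d (log2 1.08, SE 0.0946, limma adjusted p = 1.6e-05), with 9.87, 8.31 and 10.6 (0 d), 15.5, 17.4 and 17.2 (3 d), 8.36, 9.36 and 9.4 (6 d), and 20.2, 20.3 and 20.2 (9 d) FPKM. Without 0 d replicate 2 it had 0.98. Its 3 d and 9 d libraries were above all of 0 d and 6 d. At 9 d, 3.41% of all mRNAs were called higher. By adjusted p alone, MCM3 (log2 0.80) and MCM5 (0.74) were also higher at 3 d, where 21.7% of all mRNAs were. MCM5 (0.71) and MCM4 (0.63) were higher at 9 d (9.69% of all) and MCM4 lower at 6 d (-0.62, 24.8% of all). MCM2 (limma adjusted p = 0.065, 0.46 and 0.059) and MCM6 (0.063, 0.16 and 0.68) did not pass. After rescaling, MCM2 passed as higher at 3 d (0.64, limma adjusted p = 0.041) and 9 d (0.83, 0.0214). It also did on both days without 0 d replicate 1 or 6 d replicates 1 or 2, at 3 d without 3 d replicate 1, and at 9 d in the fit of 6 libraries. MCM6 passed as lower at 3 d without 3 d replicate 2 (-0.22, 0.0204) and as higher at 9 d after rescaling (0.25, 0.0228).

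Of 6 tested transcription factors that act on the locus, MYC and E2F1 were called, both higher at 3 d, where 8.06% of all mRNAs were. MYC, a direct activator of miR-17-92, had 0.99, 1.33 and 0.83 (0 d), 4.84, 2.7 and 2.58 (3 d), 2.71, 1.57 and 2.1 (6 d), and 1.28, 0.79 and 1.13 (9 d) FPKM (log2 1.56, SE 0.292, limma adjusted p = 1.2e-03). The 3 d libraries lay above those of 0 d and 9 d, and 6 d had 0.94 (limma adjusted p = 0.03), which passed 2-fold without 0 d replicate 2 (1.11) or 6 d replicate 2 (1.135). It also passed 2-fold after rescaling (1.1) or with a pseudocount of 0.01 (1.003). The 6 d value of MYC did not pass without 0 d replicate 1 (limma adjusted p = 0.0778), 0 d replicate 3 (0.0964), 6 d replicate 1 (0.105) or 6 d replicate 3 (0.072). E2F1, which activates the cluster and is repressed by miR-17 and miR-20a, had 22.2, 16.2 and 27.3 (0 d), 44.9, 55.7 and 49.6 (3 d), 20.5, 15.2 and 21.2 (6 d), and 36.7, 37.1 and 31.2 (9 d) FPKM (log2 1.22, SE 0.192, limma adjusted p = 3.8e-04), and at 9 d 0.70 (limma adjusted p = 0.016), which did not pass without 9 d replicate 1 (0.0514) or 9 d replicate 2 (0.0537). Its 6 d libraries overlapped those of 0 d. STAT3 rose at 3 d by less than 2-fold (0.49, limma adjusted p = 3.3e-05). Of 11 processing and effector genes, 0 were called over 2-fold by limma on any day. Of all mRNAs, 8.06%, 3.39% and 3.41% were called higher at 3, 6 and 9 d, and 15.2%, 7.97% and 7.47% lower. By adjusted p alone, 2, 3 and 4 were lower at 3, 6 and 9 d, beside 30.5%, 24.8% and 27.2% of all mRNAs. By the same rule 0 were higher, beside 21.7%, 10% and 9.69% of all mRNAs. Those lower included TARBP2, a partner of Dicer (-0.62, -0.33 and -0.70), and AGO2, the cleaving Argonaute (-0.13, -0.55 and -0.43). The AGO2 value at 3 d did not pass (limma adjusted p = 0.15), except without 0 d replicate 3 (-0.20, 0.0233). The TARBP2 value at 6 d (limma adjusted p = 0.042) did not pass without 0 d replicates 2 or 3, 3 d replicate 2, 6 d replicates 1 or 2 or any 9 d replicate (up to 0.142), with no filter on low values (0.0541), after rescaling (-0.16, 0.327) or in the fit of 6 libraries (0.0876). The 9 d count was 2 after rescaling, where DGCR8 (-0.14, limma adjusted p = 0.414) and AGO4 (-0.52, 0.0784) did not pass. Before rescaling they had -0.35 (limma adjusted p = 0.041) and -0.71 (0.021). DGCR8 at 9 d also failed without 0 d replicates 1, 2 or 3, 3 d replicate 1, 6 d replicate 3 or 9 d replicates 1 or 2 and with no filter on low values, and AGO4 without 0 d replicates 2 or 3 or 9 d replicates 1 or 2 and in the fit of 6 libraries. DROSHA came to pass without 0 d replicate 3 at 6 d (-0.36, limma adjusted p = 0.0421) and 9 d (-0.46, 0.0145) as lower, and at 3 d as higher after rescaling (0.34, 0.0338) or without 0 d replicate 2 (0.40, 0.0185). DICER1 at 9 d (-0.49, limma adjusted p = 0.24) came to pass as lower without 9 d replicate 1 (-0.82, 0.0412). Over 2-fold at 3 d were AGO4 without 0 d replicate 1 (-1.19, limma adjusted p = 1.4e-04) and AGO1 without 3 d replicate 3 (1.42, 0.044).

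Of 31 published targets, 3 were called higher and 8 lower after 3 d, beside 8.06% and 15.2% of all mRNAs. After 6 d these numbers were 3 and 3 (3.39% and 7.97%), and after 9 d they were 4 and 3 (3.41% and 7.47%). The largest rise at 3 d was that of BCL2L11, the proapoptotic BIM, whose row is joined with ACOXL and is therefore uncertain. It had 5.55, 14.1 and 3.53 (0 d), 52.5, 124 and 100 (3 d), 12, 11.8 and 10.3 (6 d), and 11.8, 16.9 and 18.7 (9 d) FPKM (log2 3.71, SE 0.463, limma adjusted p = 7.4e-05), with all 3 d libraries far above the rest. It was also called at 6 d without 0 d replicate 2 (1.34, limma adjusted p = 0.02). At 9 d it was called without 0 d replicate 2 (1.79, limma adjusted p = 5.0e-03) or 3 d replicate 1 (1.24, 0.048), and after rescaling (1.44, 0.035). HIF1A, the hypoxia-inducible factor, was higher at 3 d (2.41), 6 d (1.61) and 9 d (1.27), and KAT2B, an acetyltransferase, at 3 d (1.16, or 0.85 without 3 d replicate 3). The largest fall was that of CTGF, a matricellular protein, with 2500.4, 2345 and 2463 (0 d), 54.4, 55 and 59.9 (3 d), 1581, 1696 and 1769 (6 d), and 1842, 1999 and 1880.0 (9 d) FPKM (log2 -5.43, SE 0.0589, limma adjusted p = 6.0e-12). Its 3 d libraries were the lowest by far, without overlap.

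CCND1, the G1 cyclin, fell at 3 d (-4.35) and was higher at 9 d (1.16), with 79.2 to 87.5 FPKM at 0 d. It had 3.73 to 4.42 FPKM in the 3 d libraries, 47.8 to 51.2 in those of 6 d and 183 to 197 in those of 9 d. The other targets lower at 3 d were KLF2 (-3.05), THBS1 (-1.87), BMPR2 (-1.45), CDKN1C (-1.35), KLF4 (-1.29) and SMAD2 (-1.11). BMPR2 had -0.86 without 3 d replicate 2, and in the fit of 6 libraries it did not pass (limma adjusted p = 0.059). THBS1, an inhibitor of angiogenesis, had the largest rise at both 6 d (log2 1.89, SE 0.0579, limma adjusted p = 1.3e-08) and 9 d (log2 1.74, SE 0.0579, limma adjusted p = 2.4e-08), with 3881, 3823 and 3764 (0 d), 964, 1060.5 and 1124 (3 d), 14184, 13981 and 14436 (6 d), and 13048, 13239 and 12021 (9 d) FPKM. It was lowest at 3 d and highest at 6 d, and no days overlapped. CDKN1C, the inhibitor of cyclin-dependent kinases known as p57, had the largest fall on both days (log2 -2.81, SE 0.11, limma adjusted p = 5.8e-08 at 6 d, and -2.32 at 9 d), with 37.5, 33.1 and 40.7 (0 d), 13.1, 14.7 and 15.5 (3 d), 4.97, 5.44 and 5.14 (6 d), and 6.38, 7.59 and 8.1 (9 d) FPKM. All its later libraries lay far below 0 d. ITGA5 was also higher at 6 d (1.57) and VEGFA at 9 d (1.28). KLF2 (-2.26) and KLF4 (-1.75) were also lower at 6 d, and KLF2 (-1.11, or -0.90 after rescaling) and ESR1 (-1.15, at no more than 0.30 FPKM) at 9 d. KLF4 passed 2-fold at 9 d without 0 d replicate 2 (-1.05), and ESR1 did at 6 d without 0 d replicate 1 (-1.01), 0 d replicate 3 (-1.10), 6 d replicate 1 (-1.03) or 6 d replicate 3 (-1.07). RBL2, the retinoblastoma family member p130, had -0.06, -0.22 and -0.60, the last with a limma adjusted p of 0.014, which did not pass without 0 d replicate 1 (0.0546) or 9 d replicate 2 (0.0567) or after rescaling (0.091). Of the same protein family, RB1, whose row is joined with LOC101903713, was lower by less than 2-fold on each day (-0.76, -0.62 and -0.73, limma adjusted p = 4.2e-04, 3.0e-03 and 1.0e-03), and RBL1, known as p107, was higher at 3 d (0.53, 3.3e-04) and 9 d (0.62, 2.5e-04). The mRNA data do not measure repression by the miRNAs, which was not tested.

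**Figure D5:**
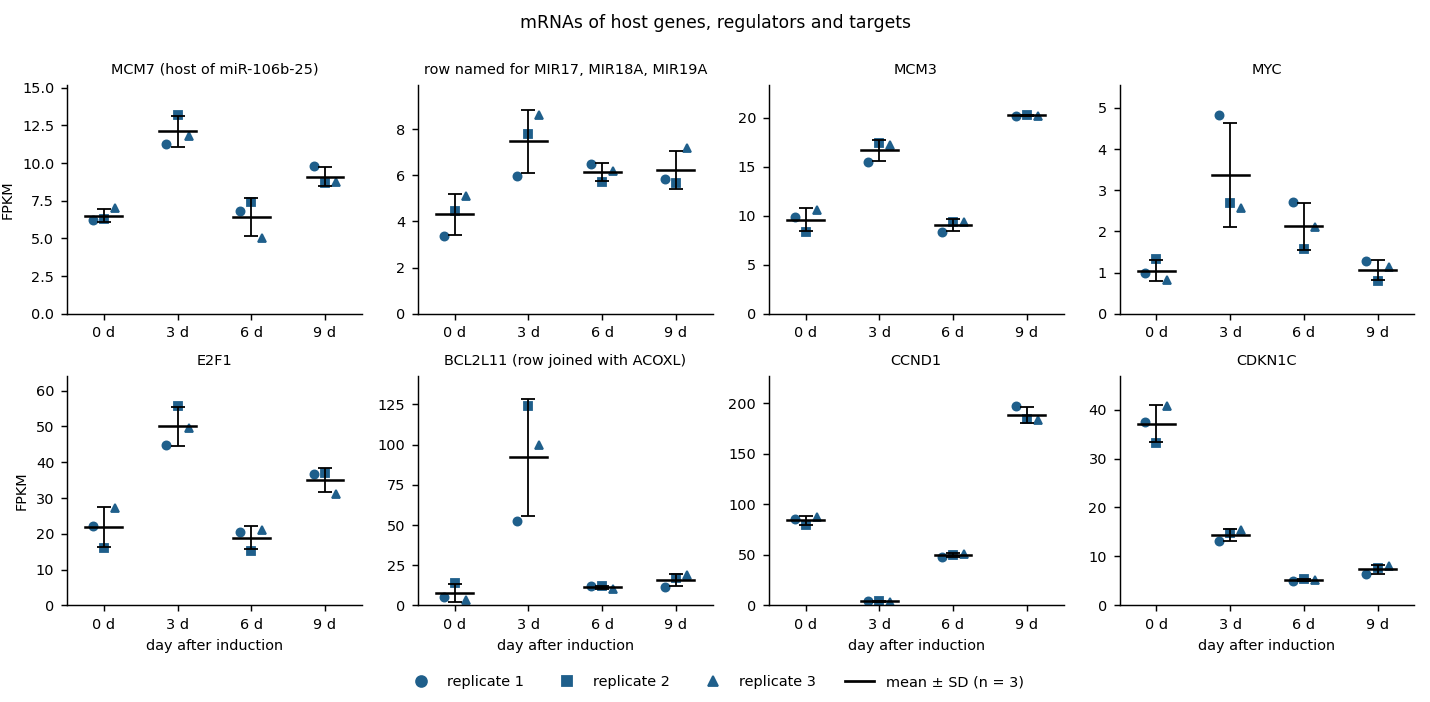
FPKM (vertical axis) of 8 mRNA rows by day after induction (horizontal axis), with a point for each library and bars for the mean ± SD (n = 3). MCM7, MYC and E2F1 are highest at 3 d, at means of 12.1, 3.37 and 50.1 FPKM, while CCND1 is lowest there at 4.03 and highest at 9 d at 188 FPKM.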

How the data were processed

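Small RNA and mRNA libraries of the same 12 samples (4 days, 3 libraries each) were used. The authors obtained the miRNA estimated counts by cleaning reads with ACGT101-miR and matching them to miRBase precursors, and split reads that match several rows between them. The deposited normalized signal is that estimated count times 1 factor per library, chosen by the authors. The authors computed FPKM after mapping mRNA reads to ARS-UCD1.2, with HISAT2 2.0 and StringTie 1.3.0 in their notes, which also list Bowtie 0.12.2 and the mouse build mm8.

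From these values, fold changes, tests and ratios were computed. Rows of a name are identical, and 1 was kept. Names with at least 10 raw counts in total were rounded and fitted with edgeR 4.0.16 (TMM, quasi-likelihood, common biological coefficient of variation 0.444). Depth was 1438548 to 4673382 raw counts per library over 1 row per name. The mRNA rows were fitted with limma 3.58.1 with trend. Fits used R 4.3.3 and other steps Python 3.11.15, NumPy 2.4.6, pandas 2.3.3, SciPy 1.17.1 and Matplotlib 3.10.9, and the statistics were tested on simulated data. The simulated miRNA counts had the same spread for all miRNAs, smaller than the fitted one, and no outlying library. Alternatives were DESeq2 1.42.0, other scalings, filters, offsets and fits, a replicate block and each library left out. The members and lists were chosen with earlier results of these data known. Genes named singly are listed genes that were called, hosts of a member, or published regulators, processing genes and targets of the clusters. The circRNA and lncRNA tables were not used, because 0 circRNA rows overlap a member hairpin and the lncRNA transcripts are named by number only.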

Additional observations from a re-analysis of the deposited data

How the results depend on the processing

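With library totals in place of TMM, the members called over 2-fold became 6 at 9 d vs. 0 d and 8 at 9 d vs. 3 d, beside 19.6% and 8.06% of all miRNAs in those fits, and those with an adjusted p under 0.05 became 1 at 6 d (14.6% of all) and 9 at 9 d vs. 3 d (11.2%). DESeq2 gave 9 members by adjusted p in the last of these (15.2%). Fitting only the 6 libraries compared gave 1 member over 2-fold at 9 d vs. 0 d, and by adjusted p 0 at 3 d, 0 at 6 d, 2 at 9 d and 10 for 9 d vs. 3 d. Of all 1079 miRNAs, 147 were over 2-fold at 9 d vs. 0 d, and 37, 71, 158 and 216 passed by adjusted p. With 1 library left out, the members over 2-fold numbered 0 to 1 in the 3 d comparison, 0 to 1 in that of 6 d and 1 to 4 in that of 9 d with 0 d. Of all 1079 miRNAs, 48 to 80, 91 to 165 and 154 to 222 were called over 2-fold in those comparisons. Members with an adjusted p under 0.05 then numbered 1 to 5, 0 to 4 and 3 to 7, and 3 to 10 for 9 d vs. 3 d. Of all miRNAs, 57 to 121, 111 to 201, 191 to 272 and 58 to 210 passed. Where a day is left with 2 libraries, the fit assumes the same spread for all days.

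The ratio of miR-19b to miR-20a passed with a pseudocount of 1 (difference 1.05). Leaving out 1 library gave differences of 0.94 to 1.23 for it, 0.30 to 0.41 for miR-17-5p over miR-20a and 0.63 to 1.42 for miR-93 over miR-106b. Of the listed mRNAs, 3 to 5 were higher at 6 d with 1 library left out, 6 were lower at 6 d with a pseudocount of 0.01, and 1 was lower at 9 d with a pseudocount of 1. SMAD2 at 9 d turned from log2 -0.01 to 0.19 (limma adjusted p = 0.029) when libraries were rescaled by their median ratio. Over all alternatives and comparisons, a single miRNA value came to pass 46 times and ceased to pass 40 times, both by adjusted p alone. A listed mRNA value did so 45 and 96 times by adjusted p alone, and 20 and 7 times by the 2-fold rule.

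The libraries of different days share only a replicate number. Deviations from the day means correlated over 0.1 in 5 of 18 same-numbered pairs of miRNA libraries and 2 of 18 of mRNA, and 6 of 12 libraries correlated best with their own number. With the replicate number as a block, 193 of all 1079 miRNAs had an adjusted p under 0.05 at 6 d in place of 173. The block gave 5 members there in place of 3, as miR-17-5p and miR-106a were added (0.72, edgeR adjusted p = 0.048). It also added miR-18a-3p at 9 d (-0.75, edgeR adjusted p = 0.047) and for 9 d vs. 3 d (-0.93, 0.033), miR-19b for 9 d vs. 3 d (-1.38, 0.017) and BCL2L11 at 9 d (1.24, limma adjusted p = 0.044), and by adjusted p alone MCM4 at 3 d (0.29, limma adjusted p = 0.0491). TARBP2 at 6 d did not pass with the block (-0.33, limma adjusted p = 0.0694), and no other call changed.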
